A study of Rattus norvegicus with 10 samples.

Results

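The untreated Sertoli cell culture at time 0 is the state from which a study of follicle-stimulating hormone (FSH) started, and its transcripts are described here by how bright they were on the arrays. The 2 untreated 0 h arrays were taken out of the 10 arrays of the series. Their 8740 probe sets, which are the 8799 of the array without its 59 control probe sets, were ranked within each array. The cells came from 20-day-old rats and were kept in vitro. The other 8 arrays were of cultures given FSH for 2, 4, 8 or 24 h, with 2 arrays at each time. No FSH comparison is made here, and values of those 8 arrays appear only as ranges. The labels give no strain, no time in culture before sampling and no statement that the replicates came from separate cultures. A primary culture made from whole testis can keep germ cells and cells of the tubule wall, so markers of those cells were examined as well.

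Sertoli cells are the somatic cells of the seminiferous tubule. They surround the germ cells, feed them with lactate, wrap them in junctions that form the blood-testis barrier, engulf the remains of dying germ cells, and release proteins into the tubule fluid and the blood. Their FSH receptor acts through the stimulatory G protein and cAMP, and FSH is the pituitary hormone that sets their number and much of their output. At the age of these rats Sertoli cells are leaving proliferation and the first wave of meiosis is under way, so spermatocytes are the most advanced common germ cells.

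Each value is the deposited intensity of a probe set, on a linear scale. Rank 1 is the brightest probe set of an array, and the percentile is the share of probe sets at or below it, so that 100 is the brightest. The top 10% of an array held 874 probe sets and the top 1% held 87. A gene was represented by the brightest of its probe sets that carry exactly 1 gene symbol, which gave 4736 genes. Brightness also depends on the probes, so a rank orders signals and is only a rough order of transcript numbers. Among the 1565 genes with more than 1 such probe set, the probe sets of a gene spanned a median of 19 percentile points. Of 252 genes whose brightest probe set had a mean percentile above 90, 80 kept their dimmest probe set above it too, and 45 had it in the lower 50%. With 1 group of 2 arrays, no test was made, and each value is given for both arrays.

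Both arrays put the transcripts in much the same order. Across all 8740 probe sets, which are not independent replicates, Spearman's rho was 0.882. Of the 100 brightest probe sets of either array, 69 were among the 100 brightest of the other, and of the 874 probe sets in the top 10%, 725 were (83%). The median difference in percentile between the arrays was 0.16 points for the 75 probe sets with a mean percentile above 99, 1.21 points from 90 to 99, 4.04 points from 75 to 90, 8.12 points from 50 to 75 and 12.4 points from 25 to 50. From 0 to 25 the median difference was 6.97 points. A mean percentile near either end of the scale leaves little room for a difference, so part of this pattern is fixed by the bands. In percentile points the arrays thus differed least at the bright end and most from 25 to 50.

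The spread of intensities was wider on replicate 1. Its median was 26.7 and its brightest probe set had 21296, while replicate 2 had a median of 44.5 and a brightest value of 14309. The top 1% of probe sets held 32.5% of the summed signal on replicate 1 and 26.3% on replicate 2, and the top 10% held 78.8% and 69.6%. The lower 50% held 2.14% and 4.76%. Across the 75 probe sets with a mean percentile above 99 the median ratio of replicate 2 to replicate 1 was 0.681, and among probe sets between the 25th and 50th percentile it was 1.86, so intensities are set side by side below with this tilt in view, and percentiles are the measure that it leaves alone. The spiked bacterial control CreX had 16221 on replicate 1 and 7348.5 on replicate 2, against 2815 to 9818 on the other 8 arrays. The ratio of the 3' to the 5' beta-actin control was 1.17 on replicate 1 and 1.76 on replicate 2. Replicate 1 thus lay above all other arrays for this spike, and the part of the spike or of the actin ratio in the results below was not tested.

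**Figure D1:**
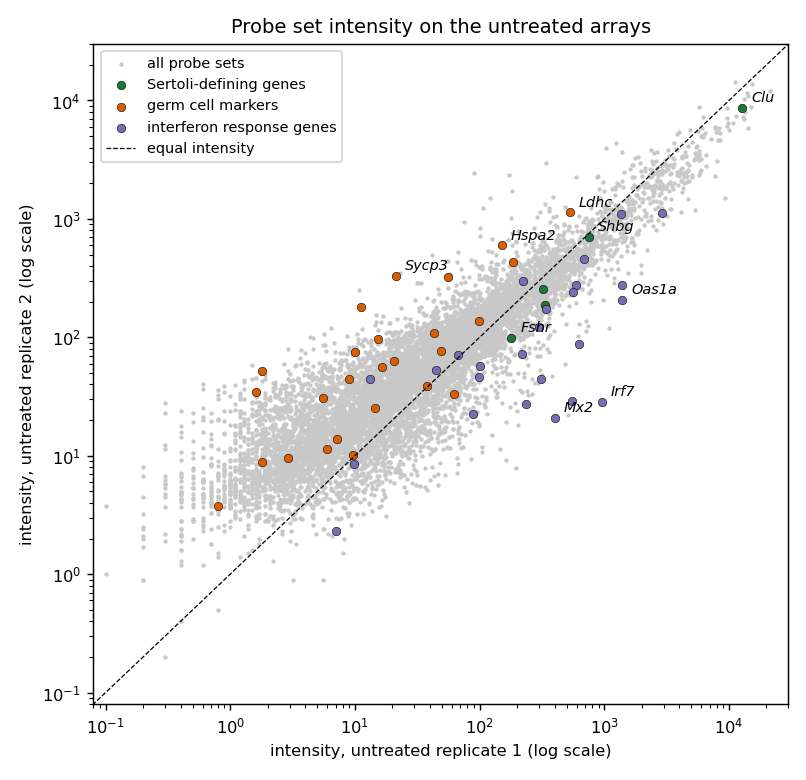
Intensity of every probe set on untreated replicate 1 (x axis) and untreated replicate 2 (y axis), both on log scales, with the Sertoli-defining genes, germ cell markers and interferon response genes of the text as coloured points and equality as a dashed line. Clu sits at the bright end near the line, Sycp3 and other germ cell markers lie above it, and Irf7 and Mx2 lie far below it.

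How dim an unexpressed gene looks was gauged in 2 ways. The 23 control probe sets for bacterial genes outside the hybridisation spikes, mouse cytokines and yeast genes had intensities of 0.6 to 21.6 on replicate 1 and 2.8 to 32.8 on replicate 2. All of them lay below the array medians, with a highest percentile of 45.4 on replicate 1 and 42.2 on replicate 2. The second gauge was a list of genes whose products belong to other organs, such as pancreas, pituitary, liver, heart and brain. Of its 69 measured genes, 20 lay in the upper 50% on both arrays (29%, against 50.4% of all genes), 0 lay in the top 10% on both, and the median percentile was 35.9, against 56.2 over all genes. Its brightest member was Ins2, which encodes insulin and had 213 on replicate 1 and 402 on replicate 2, a mean percentile of 88.1. That value came from 1 of its 3 probe sets, and the dimmest of them had a mean percentile of 11.5. Ins1 (171 and 202), Apoc3 (110 and 168), Mag (106 and 117) and Muc2 (82.9 and 125) followed. A probe set in the upper 50% is therefore no proof of expression on this array, and a mean percentile above 88.1 was reached by no gene of this list.

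The culture was first checked against the markers that define it. All 5 Sertoli-defining genes lay in the upper 50% on both arrays, with a median percentile of 87.8, and 2 of the 5 lay above every gene of the other-organ list. Clu, which encodes clusterin, the sulphated glycoprotein that Sertoli cells release in bulk, had 12738 and 8672 and ranked 11 and 10. Shbg, the gene of the androgen-binding protein of tubule fluid, reached 756 and 709 and ranked 497 and 442. These values were close on both arrays and well up in the top 10%.

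The hormone genes of the list were less bright. Amh, the anti-Müllerian hormone that removes the Müllerian duct of the male fetus and falls towards puberty, had 323 and 257, ranks 964 and 1178. Inha, the alpha subunit of inhibin, the hormone that lowers pituitary FSH, had 335 and 188, ranks 937 and 1525, and its other probe set had 265 and 159. Both lay below the top 10% on both arrays.

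Fshr, the receptor through which FSH acts, had 180 and 99.4, ranks 1470 and 2588. Its other probe set had 5.5 and 16.3, at a mean percentile of 23.6. All 5 defining genes lay above the 90th percentile of the other-organ genes (69.5). Of the 69 genes of that list, 1 lay above Amh and Inha (Ins2) and 3 lay above the brighter Fshr probe set.

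**Figure D2:**
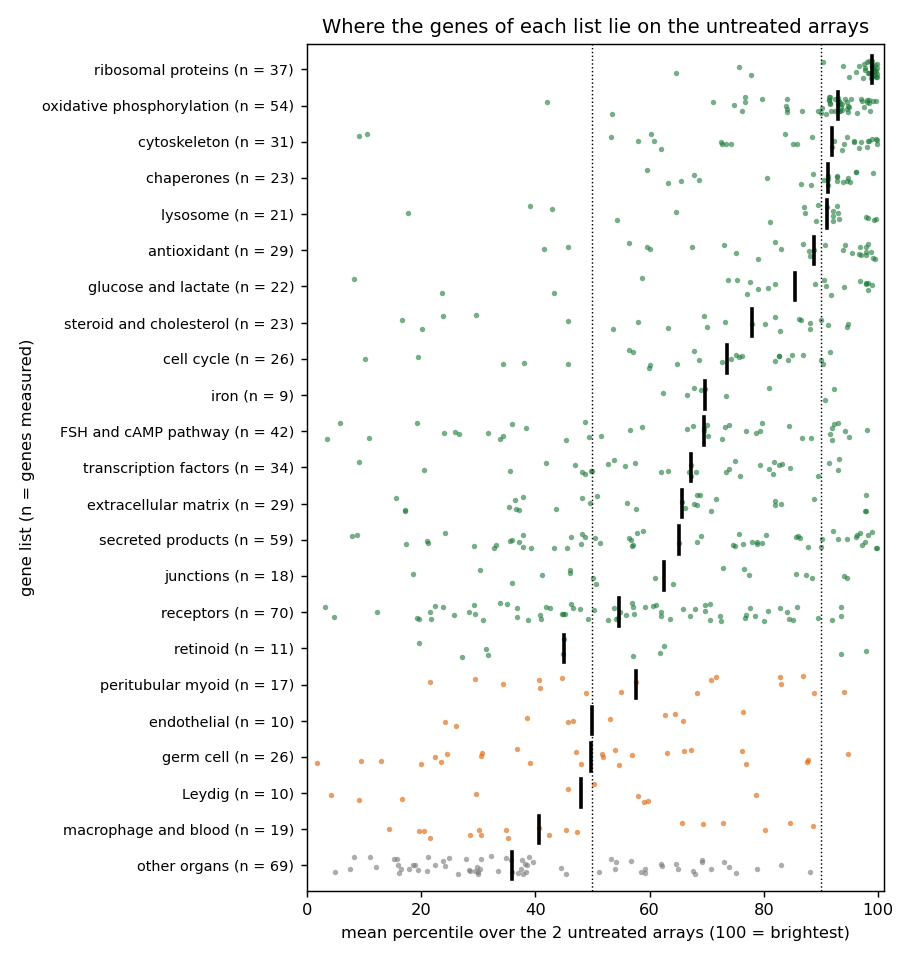
Mean percentile over both untreated arrays (x axis, 100 = brightest) of every measured gene of 23 gene lists (rows, with the number measured), with the median of each list as a black bar and dotted lines at the 50th and 90th percentiles. Green lists are functions of the Sertoli cell or of any cell, orange lists mark other cells of the testis and grey is the other-organ list. Ribosomal proteins sit at the right edge, with a median of 98.9, and the other-organ genes have the lowest median, 35.9.

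Of the 100 brightest probe sets, 49 carried 1 gene symbol, 29 several and 22 none. Ribosomal protein genes were named by 38 of the 100, against 1.19% of all probe sets. The brightest probe set of replicate 1 (21296) and that of replicate 2 (14309) carried no symbol. The 4 probe sets that carried the symbol of a mitochondrially encoded subunit of cytochrome c oxidase were all among these 100. COX1, its catalytic subunit, had 15065 and 8785, ranks 3 and 8, and 9854 and 6434 on its other probe set. COX3 had 9637 and 8713, and COX2, which takes electrons from cytochrome c, had 3974.5 and 5413.

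Among the 40 brightest probe sets with 1 symbol, 17 belonged to 15 ribosomal protein genes. These were Rps16 (12924 and 7218), Rplp0 (11406 and 7379), Rpl27a (10678 and 6461), Rps29, Rps3, Rpl19, Rpl3, Rps15, Rpl31, Rpl36, Rpl6, Rps6, Rpl27, Rpl7a and Rpl13a. Over the whole list of ribosomal proteins, 33 of 37 genes lay in the top 10% on both arrays (89.2%, against 8.95% of all genes). The 4 others were Rps24 (74.1 and 235), Rpl30 (62.7 and 210), Rpl5 (38.4 and 106) and Rpl17 (271 and 547). All 4 were brighter on replicate 2. Ribosomal protein genes have many processed pseudogenes, and 29 of the 100 brightest probe sets were assigned to several genes, so some of this signal cannot be split between copies.

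Clu followed COX1 in the order of mean percentile. Tmsb4x, which encodes the actin-sequestering peptide thymosin beta 4, had 14148 and 5829.9, ranks 5 and 23. The actin genes Actb (7675 and 5961) and Actg1 (7824 and 5407) were close behind. Psap, which encodes prosaposin, the sulphated glycoprotein 1 of Sertoli cells and the precursor of lysosomal saposins, had 7790.5 and 5821, ranks 28 and 24.

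Respiration and detoxification were represented by Cox4i1, a nuclear-encoded subunit of cytochrome c oxidase (8445.5 and 4652), Ndufb8, a subunit of complex I (5892 and 2489.9), Mgst1, a microsomal glutathione transferase (7979 and 3054), Gstm1, a cytosolic one (7749 and 2288), and Akr1b1, aldose reductase (4649 and 2951). Cd63, a tetraspanin of late endosomes, had 6486 and 2804, and Hsp90ab1, a cytosolic chaperone, had 3735 and 3882. Oaz2 (5629 and 5486) and Oaz1 (4668.5 and 2559) encode antizymes that limit polyamine synthesis. Pebp1, an inhibitor of Raf kinase, had 5706 and 3568, and Mif, a cytokine of Sertoli and Leydig cells, had 3308 and 3374. Among the 40 brightest, Tmsb4x, Mgst1, Cd63, Rpl6, Ndufb8 and Gstm1 stood more than 2-fold apart, all brighter on replicate 1, in the direction of the tilt.

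**Figure D3:**
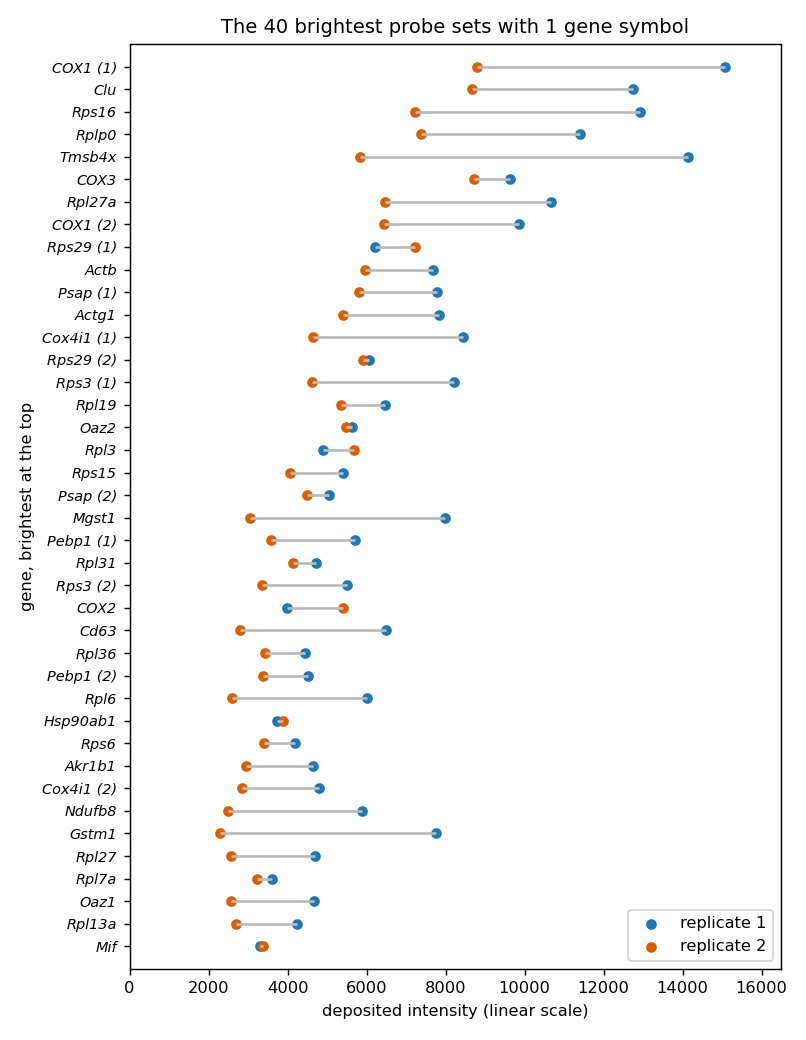
Deposited intensity (x axis, linear scale) of the 40 brightest probe sets with 1 gene symbol, in order of mean percentile from the top, on untreated replicate 1 (blue) and replicate 2 (orange), with a number after genes that have 2 such probe sets. Replicate 1 lies to the right of replicate 2 for most of them, as for COX1 at 15065 and 8785.

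What the brightest genes share in sequence was examined at their transcription starts, with promoters from RefSeq (GRCr8), which cover 250 bases before the start to 50 after it. Vertebrate ribosomal protein genes are known to open with a C followed by a run of pyrimidines, which ties their translation to growth signals. A run of 5 or more C or T that opens with C within 5 bases of the annotated start, on the coding strand, was found in 17 of the 33 ribosomal protein genes with a promoter in the table (51.5%). It was found in 13 of 58 of the 100 brightest genes without ribosomal proteins (22.4%), in 16.4% of the 3871 measured genes with a promoter and in 17% of all 27457 promoters. The 30 bases around the start of the 8 brightest ribosomal protein genes in the table are shown with that run in capitals, to let the starts with and without it be compared, and 3 bright genes of other functions follow.
Rps16, chr1:92770643-92770672 (+): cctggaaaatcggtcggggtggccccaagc
Rplp0, chr12:46718376-46718405 (-): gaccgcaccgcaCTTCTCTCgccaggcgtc
Rpl27a, chr1:172974558-172974587 (+): cgagacttggtgggCTCCTCCCTCTTTCTT
Rps3, chr1:163195762-163195791 (-): ttcctttcagcggcgcgcggcagcaagatg
Rpl19, chr10:83519049-83519078 (+): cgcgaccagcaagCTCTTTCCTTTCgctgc
Rpl3, chr7:113507976-113508005 (-): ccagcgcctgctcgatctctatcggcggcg
Rps15, chr7:10068101-10068130 (-): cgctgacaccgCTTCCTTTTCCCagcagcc
Rpl31, chr9:49143096-49143125 (+): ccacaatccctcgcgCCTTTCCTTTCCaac
Actg1, chr10:106120937-106120966 (-): ggggaggccgcgatcggtctcacacttcgc
Mgst1, chr4:172760915-172760944 (+): ccagaggtgggcaggctccgcaggacagct
Cd63, chr7:1922129-1922158 (+): gggggcacaggagacggctgctgagccgcg
The runs of Rplp0, Rpl27a, Rpl19, Rps15 and Rpl31 were 8 to 16 bases long, as far as the window reaches. Rps16, Rps3 and Rpl3 had none at the annotated start, nor had the 3 genes of other functions. The TATA box letters TATAAA, searched on the coding strand with all 6 letters from 50 to 20 bases before the start, were found in 6 of the 84 brightest genes with a promoter (7.14%), in 7 of 51 secreted products (13.7%) and in 4.49% of all measured genes.

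Of 59 measured genes of secreted products, 12 lay in the top 10% on both arrays (20.3%, against 8.95% of all genes). In the upper 50% on both lay 35 (59.3%, against 50.4%). In the lower 50% on both lay 15, beside 1715 of all 4736 genes. The median percentile of the list was 65.2, against 56.2 over all genes. The 12 were Clu, Psap, Mif, Ctsl, Sparc, Cst3, Timp2, A2m, Timp1, Shbg, Apoe and Grn.

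Of carriers and clearance proteins, Apoe, which carries lipids, had 369 and 949, and Shbg and Clu are given above. Grn, the growth factor precursor progranulin, had 646 and 392. Ctsl, the cathepsin known in rat as cyclic protein 2 because its release follows the stages of the tubule, had 2628 and 2090.2, ranks 161 and 153. Cst3, the secreted inhibitor of cysteine cathepsins, had 1671 and 1434. Protease and inhibitor thus both ranked among the brightest 3% of probe sets.

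Among inhibitors of metalloproteinases, Timp2 had 1631 and 1087 and Timp1 had 1165 and 994. A2m, the broad protease trap alpha-2-macroglobulin, had 917 and 1502 on its brightest probe set, whereas the dimmest of its 6 probe sets had a mean percentile of 3.42. Sparc, a calcium-binding matrix protein, had 1722 and 1917. These 4 genes were in the top 10% on both arrays.

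Of other secreted factors, chosen after their values were seen, the growth factor Tgfb3 had 376 and 343 and Ccl2 289.5 and 480, both at the edge of the top 10%. Serpina5, an inhibitor of plasminogen activators and protein C, had 135 and 418. Inhba, the beta A subunit of inhibin and activin, had 26.9 and 74, and Inhbb, the beta B subunit, 24.7 and 14. Kitlg, the ligand of the germ cell receptor Kit, had 2.7 and 5.4, Gdnf, which maintains spermatogonial stem cells, 46.9 and 15.6, and Bmp4 1.5 and 8.8. Plat, the tissue-type plasminogen activator, had 27.8 and 30.1. All 6 of the last genes lay within the range of the other-organ genes. Tf, the gene of transferrin, was not analysed here, because no probe set carried its symbol alone.

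Of 70 measured receptors, 3 lay in the top 10% on both arrays (4.29%, against 8.95% of all genes). In the upper 50% lay 37 (52.9%, against 50.4%), and in the lower 50% lay 23, beside 1715 of all 4736 genes. The median percentile was 54.7, against 56.2 over all genes. Rara, the retinoic acid receptor alpha, had 749 and 506, ranks 503 and 629, and Thra, the thyroid hormone receptor alpha, had 608 and 379. Ngfr, the low-affinity neurotrophin receptor, had 573 and 617. Each of the 3 had a dimmer probe set, at mean percentiles of 46.3 for Rara, 44.8 for Thra and 77.5 for Ngfr.

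By mean percentile Itpr3 (288 and 407) and Tnfrsf1a (458 and 158) ranked next. The further receptors named here were chosen after their values were seen. Tyro3, which helps Sertoli cells engulf germ cell remains, had 296 and 184, Amhr2, the receptor of anti-Müllerian hormone, 242 and 178, and Acvr2b, an activin receptor, 185 and 232. Scarb1, which takes up lipoprotein cholesterol and binds phosphatidylserine, had 296 and 140. Igf1r had 61.7 and 94.7 and Insr, the insulin receptor, 35.9 and 51. Egfr (13.2 and 21.4), Esr1 (6.4 and 12.5) and Thrb (1.2 and 4.2) were in the lower 50% on both arrays.

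**Figure D4:**
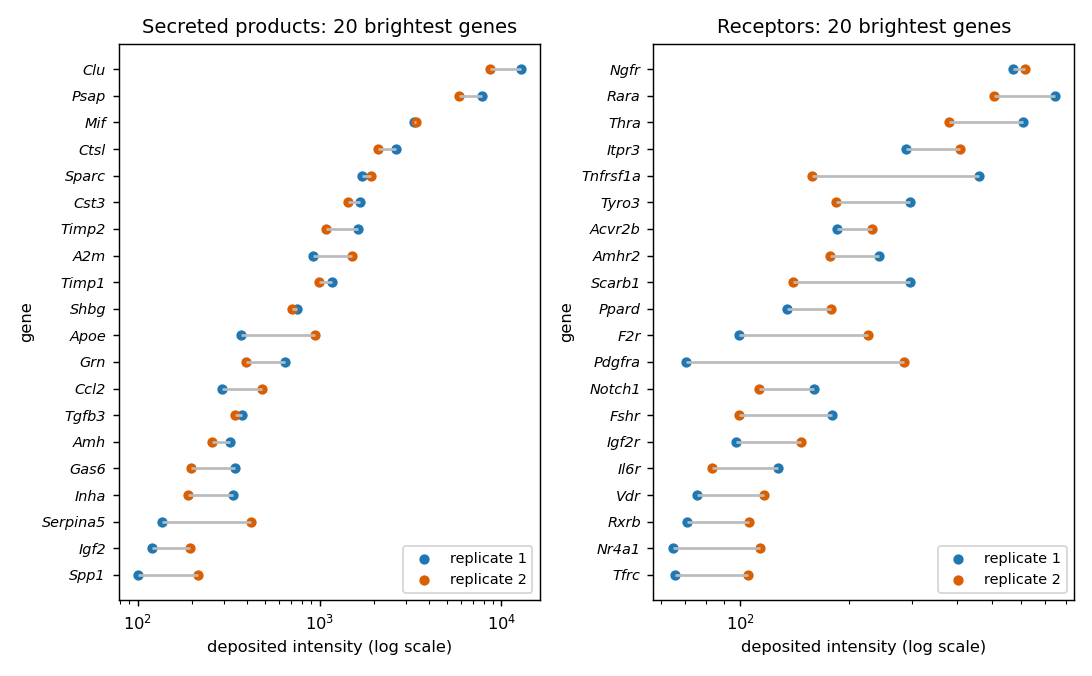
Deposited intensity (x axes, log scales) of the 20 brightest secreted products (left) and the 20 brightest receptors (right) on untreated replicate 1 (blue) and replicate 2 (orange). Clu and Psap lead the products, the receptors stay below 750, and Pdgfra is the receptor shown with the widest gap, at 70.4 and 285.

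Transcription factors linked to Sertoli identity or to FSH action were brighter than genes in general by their median percentile, 67.3 against 56.2. Of 34 measured, 3 lay in the top 10% on both arrays (8.82%, against 8.95%) and 23 in the upper 50% (67.6%, against 50.4%). Usf1, a helix-loop-helix factor that binds the E-box CACGTG, had 702 and 435. Egr1 (431 and 736) and Jun (429 and 424) are immediate early factors, and Fos had 184 and 178. Wt1, which is needed for Sertoli identity, had 216 and 132, and Gata6 had 161 and 177.

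By percentile, 19 of the 34 factors were higher on replicate 1 and 15 on replicate 2, against 2291 and 2439 of all 4736 genes. Gata4 had 306 and 69.5, Nr5a1, the steroidogenic factor 1, 133 and 36, and Nr0b1, the orphan receptor DAX1, 265 and 128. Gata1, a factor of Sertoli and erythroid cells, had 47.7 and 21.2. These 4 were named after their values were seen, for being higher on replicate 1, whereas Egr1, Id2 (38.5 and 129) and Nfyb (16.4 and 64.9) were higher on replicate 2. Sox9 and Dmrt1 were not analysed here, for the same want of a probe set of their own.

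The Fshr promoter is known in rat to depend on an E-box bound by the Usf factors, and the Amh promoter on a site for Nr5a1. The RefSeq promoters of both are shown, with CACGTG in capitals for Fshr and AAGGTCA in capitals for Amh, each searched on both strands.
Fshr, GRCr8 chr6:10952079-10952378 (+): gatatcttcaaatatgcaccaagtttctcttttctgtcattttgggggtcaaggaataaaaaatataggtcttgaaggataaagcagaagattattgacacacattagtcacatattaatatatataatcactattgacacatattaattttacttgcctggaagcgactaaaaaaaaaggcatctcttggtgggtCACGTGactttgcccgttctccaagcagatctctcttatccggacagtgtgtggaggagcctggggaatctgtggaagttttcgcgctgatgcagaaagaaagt
Amh, GRCr8 chr7:9559818-9560117 (-): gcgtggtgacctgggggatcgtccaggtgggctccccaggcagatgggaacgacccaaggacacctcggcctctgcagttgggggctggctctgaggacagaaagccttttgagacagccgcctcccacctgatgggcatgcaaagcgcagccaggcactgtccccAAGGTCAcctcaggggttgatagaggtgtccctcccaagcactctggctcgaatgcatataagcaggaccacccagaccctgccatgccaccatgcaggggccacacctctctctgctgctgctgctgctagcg
CACGTG began 54 bases before the annotated Fshr start and is present in 6.65% of all promoters of the table. AAGGTCA began 84 bases before the annotated Amh start and is present in 4.37% of them. These are matches of letters, and no binding was measured. Usf1 was in the top 10% on both arrays, Usf2 had 45.5 and 45.8, and Nr5a1 is given above.

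Genes of the FSH signal path spread over the whole range of brightness. Of 42 measured genes of the FSH and cAMP list, 8 lay in the top 10% on both arrays (19%, against 8.95% of all genes) and 25 in the upper 50% (59.5%, against 50.4%). Fshr itself had 14 members of the list above it and 27 below it by mean percentile. Gnas, the stimulatory G protein alpha subunit, had 2648 and 1843, ranks 157 and 188. The other subunits in the top 10% were Gnb2 (817 and 562), Gnb1 (437 and 487), Gng5 (436 and 544) and Gnai2, an inhibitory alpha subunit (523 and 388). Prkar1a, a regulatory subunit of protein kinase A, had 822 and 704, and its catalytic partner Prkaca had 191 and 114. Akt1, a kinase downstream of PI3-kinase, had 518 and 553, and the small GTPase gene Rap1b 532 and 401. The cAMP-responsive genes Crem (112 and 102) and Pde4b (106 and 100) were in the upper 50% on both arrays.

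Of junction genes, 18 were measured, and 2 lay in the top 10% on both arrays (11.1%, against 8.95%). These were Cd151, a tetraspanin bound to laminin receptors (985 and 569), and Itgb1, the integrin beta 1 subunit (476 and 904). Espn, an actin-bundling protein of the ectoplasmic specialisation (453 and 229.7), Tjp1, the tight junction scaffold ZO-1 (246 and 302), and Jup, plakoglobin (334 and 181), followed. Ocln, occludin, had 93.5 and 148. Gja1, the gap junction protein connexin 43, had 54.1 and 17.5.

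Enzymes of glycolysis led the metabolic genes of glucose and lactate. Of 22 genes of glucose and lactate handling, 9 lay in the top 10% on both arrays (40.9%, against 8.95%) and 19 in the upper 50% (86.4%, against 50.4%). Pkm, pyruvate kinase, had 5049.9 and 2367, Eno1, enolase, 3143 and 1856, Pgam1, phosphoglycerate mutase, 2849 and 1972, Ldhb, the heart-type subunit of lactate dehydrogenase, 2870.4 and 1373, and Aldoa, aldolase, 2462 and 1651. Slc2a1, the glucose carrier GLUT1, had 543 and 392, and Slc16a1, the lactate carrier MCT1, 411 and 389. Bsg, the chaperone of lactate carriers, had 1397 and 1213. Oxidative phosphorylation genes were brighter still, with 36 of 54 in the top 10% on both arrays (66.7%, against 8.95%). They were led after Cox4i1 and Ndufb8 by Cox6a1 (3628 and 2009.6), Cox8a (4213 and 1697) and Uqcrfs1 (2416 and 2495).

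Antioxidant genes had 14 of 29 members in the top 10% on both arrays (48.3%, against 8.95% of all genes). After Mgst1 and Gstm1 came Gstp1 (4619.7 and 2067), Gpx4, which removes lipid peroxides (2641 and 2141), and Gstm2 (4108 and 1138). Sod1, superoxide dismutase, had 2097 and 1871. Cat, catalase, had 4.6 and 79.9, near the blank controls on replicate 1. Of the 10 glutathione transferases of the list, 9 were brighter on replicate 1 by intensity, which the tilt affects, and Gstt2 (232 and 352.5) was not. By percentile Gsta1 (97 and 97.2), Gstm5 (96.6 and 97.1) and Gstt2 (85.9 and 89.8) were higher on replicate 2. Over all genes, 2291 of 4736 had the higher percentile on replicate 1. The tilt favoured replicate 1 only above a mean percentile of 90. Gstt1 (199.5 and 174.9) and Gsta3 (54 and 42.4) had mean percentiles of 82.9 and 56.5. The median ratio of replicate 2 to replicate 1 was 1.14 from 75 to 90 and 1.48 from 50 to 75. The standard deviation of the log2 ratio in these bands was 0.815 and 0.991. The part of the tilt in the transferase differences was not tested.

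Steroid and cholesterol genes had 3 of 23 members in the top 10% on both arrays (13%, against 8.95% of all genes). They were Dbi, which binds acyl-CoA (802 and 673), Fdps of the mevalonate pathway (874 and 607) and Tspo, an outer mitochondrial membrane protein (477 and 379), and Acat2 (494 and 280.3) and Fdft1 (253 and 338) followed. Star, which delivers cholesterol into mitochondria, had 31.5 and 71.3, and Cyp11a1 (12.1 and 15.8), Cyp17a1 (2.4 and 14.9) and Cyp19a1, aromatase (2.1 and 29.6), were in the lower 50% on both. Fdx1, the electron donor of Cyp11a1, had 226 and 278.

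Of retinoid genes, Aldh1a1, which makes retinoic acid, had 2347 and 1906, far above the rest of its list. After Rara came Rdh10 (70.6 and 55), Crabp1 (29.9 and 102) and Rbp4 (27.9 and 73.6). Of 9 iron genes, 2 lay in the top 10% on both arrays (22.2%, against 8.95% of all genes), namely Slc11a2, the iron carrier DMT1 (580 and 418), and Hmox1, heme oxygenase 1 (387 and 399). Aco1 (221 and 129), Hmox2 (118 and 93.5) and Tfrc, the transferrin receptor (65.8 and 105), came next.

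Of 31 cytoskeletal genes, 16 lay in the top 10% on both arrays (51.6%, against 8.95% of all genes). Beside the actins these included Tuba1b (4559.7 and 2483), Anxa2 (2403 and 2595) and Vim, the vimentin that fills Sertoli cells (1229 and 1823). Krt18, a keratin of immature or dedifferentiated Sertoli cells, had 107 and 94.3. Of 23 chaperone genes, 12 lay in the top 10% on both (52.2%, against 8.95%). They were led after Hsp90ab1 by Hspe1 (1103 and 1122), Ppib (1335 and 885), Calr (916 and 709) and P4hb (740.4 and 779).

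Of 21 lysosomal genes, 9 lay in the top 10% on both arrays (42.9%, against 8.95% of all genes), and Psap, Cd63, Ctsl, Atp6v0c (3414 and 1215) and Gaa (685 and 482) led. Of 29 matrix genes, 3 did (10.3%, against 8.95%), namely Mgp, which inhibits calcification (1618 and 2629), Sdc4, a heparan sulphate proteoglycan (2809.9 and 1390.1), and Sparc. Cell cycle genes had 1 of 26 in the top 10% on both (3.85%, against 8.95%), the antiproliferative Btg1 (397 and 465). In the upper 50% lay 20 (76.9%, against 50.4% of all genes). Cdk4 (601 and 277), Pcna (204 and 789.5), Mcm6 (194 and 349) and Gadd45a (136 and 359) followed it. Pcna and Gadd45a were brighter on replicate 2.

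Markers of other testis cells had lower median percentiles than the 5 Sertoli-defining genes (87.8). The medians were 49.8 for germ cells, 57.6 for peritubular myoid cells, 48 for Leydig cells, 49.9 for endothelium and 40.7 for macrophages and blood. Over all genes the median was 56.2 and over other-organ genes 35.9. The wider Sertoli lists were closer to these, at 69.5 for the FSH and cAMP list, 67.3 for transcription factors, 65.2 for secreted products, 62.5 for junctions and 54.7 for receptors. Of 26 measured germ cell markers, 1 lay in the top 10% on both arrays (3.85%, against 8.95% of all genes). In the upper 50% lay 7 (26.9%, against 50.4% of all genes and 29% of the other-organ genes). In the lower 50% lay 9, beside 1715 of all 4736 genes. Ldhc, the lactate dehydrogenase of spermatocytes and later germ cells, had 526 and 1135, ranks 638 and 295, and was the only one of the 26 above all other-organ genes. Hspa2, a chaperone of meiotic cells, had 150 and 601, Odf2, which is also found in centrosomes of other cells, 187 and 434, Crisp2 55.8 and 324 and Tcp11 98.9 and 137. Some markers of elongating spermatids were dim. Tnp2 had 0.8 and 3.8, Akap4 2.9 and 9.5, and Odf1 6 and 11.3. Prm2 (37.9 and 38.7) lay above the highest blank control on both arrays (21.6 and 32.8). Tnp1 (8.9 and 44.6) did so on replicate 2 only.

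Most germ cell markers had the higher percentile on replicate 2. Of the 26 genes, 20 had the higher percentile there (76.9%, against 51.5% of all genes and 65.2% of other-organ genes). The median difference was 10.5 percentile points, against 0.195 over all genes and 2.8 over other-organ genes. The summed intensity of the 26 was 1365 on replicate 1 and 3935 on replicate 2. On replicate 2 alone 15 of the 26 lay in the upper 50%, and on replicate 1 alone 9. Sycp3, a protein of the meiotic chromosome axis, had 21.2 and 332, Ddx4, the germ cell RNA helicase, 11.2 and 179, and Sycp1 10.1 and 75.5. On replicate 2 Sycp3, Ddx4, Crisp2 and Hspa2 lay above the ranges of the other 8 arrays. Those ranges were 19.9 to 241.9, 10.8 to 118.4, 32.1 to 243.3 and 44.2 to 589.2. Ldhc lay within its range, 53.3 to 1682.1. No other germ cell marker was set against those arrays. At least 4-fold brighter on replicate 2 were 12 of the 26, against 570 of all genes (12%). In 10 of the 12, and in 540 of the 570, replicate 1 was at or below the highest blank control (21.6), so these folds rest on a value not above background, and the 2 exceptions were Hspa2 and Crisp2. Fewer cells of a type, less RNA per cell and the array differences given above cannot be told apart here, and none of them was tested.

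Genes of the tubule wall showed a smaller difference of the same sign. Of 17 measured peritubular myoid genes, 9 lay in the upper 50% on both arrays (52.9%, against 50.4%) and 12 had the higher percentile on replicate 2 (70.6%, against 51.5%). Other lists leaned the same way. Higher on replicate 2 were 73.9% of chaperones, 69.2% of cell cycle genes, 69% of matrix genes and 65.2% of other-organ genes. By this share the tubule wall genes did not stand apart from these lists. Their median difference was larger, at 8.34 percentile points, against 6.4 for cell cycle genes, 2.8 for other-organ genes, 1.8 for matrix genes and 1.35 for chaperones. The matrix list shares genes with the tubule wall list, such as Col1a1 and Bgn. Myl9, a myosin light chain (513 and 812), and Bgn, biglycan (426 and 257), were brightest. They were the 2 of the 17 that lay above all other-organ genes by mean percentile. Acta2, smooth muscle actin, had 113 and 317, Col1a1 101 and 394, Alpl 174 and 402 and Col1a2 30.3 and 206. The defining smooth muscle genes Des (11.8 and 16), Myh11 (12 and 41.6) and Cnn1 (24.7 and 22) were in the lower 50% on both arrays, and Tagln had 46.9 and 41.8.

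None of the Leydig and endothelial genes lay above all other-organ genes. Of 10 Leydig genes 4 lay in the upper 50% on both arrays (40%, against 50.4% of all genes), and 1 did with the median over a gene's probe sets. Its brightest genes were Hsd11b1 (96.9 and 190.3), Akr1c14 (30.9 and 83.8) and Lhcgr (30.7 and 79.6), followed by Star and Prlr (35.7 and 36.2). Of 10 endothelial genes 4 lay in the upper 50% (40%, against 50.4%), led by Edn1 (180.4 and 94.9), which other cells make too, Nos3 (45.4 and 103), Flt1 (51.5 and 81.8), Selp (72.6 and 54.3) and Vcam1 (36.5 and 44.3). Pecam1 had 37.9 and 23.5 and Vwf 16.9 and 25.7. None of these 20 genes reached the top 10% on both arrays.

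Of 19 macrophage and blood genes, 6 lay in the upper 50% on both arrays (31.6%, against 50.4% of all genes). The haemoglobin genes Hbb (197 and 522) and Hbb-b1 (153 and 280.4) and the erythroid Alas2 (220.5 and 121) were brightest, followed by C1qc (73.9 and 124) and Cd14 (67 and 99.5). Hbb was the only 1 of the 19 above all other-organ genes by mean percentile. The leukocyte genes Ptprc (7 and 25.6), Csf1r (14.5 and 14.3) and Itgam (11.3 and 7) were in the lower 50% on both.

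The largest differences between the arrays were listed to show which genes a single baseline array would misplace. Of the 4962 probe sets in the upper 50% on at least 1 array, 417 stood at least 4-fold apart (8.4%), 314 brighter on replicate 2 (6.33%) and 103 brighter on replicate 1 (2.08%). With the arrays brought to the same distribution by quantile normalization the split turned to 146 brighter on replicate 2 and 206 brighter on replicate 1, and with a shared 75th percentile it was 223 and 153. The direction of the majority therefore depends on the scaling, while percentiles do not.

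The 10 widest gaps with replicate 2 brighter were those of Meioc (1.5 and 58.2), which is needed for meiotic prophase, Kit (1.8 and 52.4), Pam (1.6 and 45.8), Grik5 (2.9 and 79.3), Rpl19l4 (91 and 2459.9), Tnfrsf11b (1.9 and 47.8), Plk4 (4.6 and 98.7), Hook1 (3.7 and 78.8), Col3a1 (5.7 and 106) and Igf1 (6.4 and 119). Meioc and Kit are germ cell genes, and Hook1 is needed for shaping the sperm head. In 9 of the 10, Rpl19l4 excepted, replicate 1 was at 6.4 or below, within the range of the 23 blank controls. These ratios therefore rest on values that this array does not separate from blank.

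The 10 widest gaps with replicate 1 brighter were those of Irf7 (956 and 28.7 on 1 probe set, 197 and 7.9 on another), Slc4a2 (515 and 22.3), Mx2 (400.5 and 20.9), Lgals9 (549 and 29.1), Ptms (164 and 9.3), Apbb1 (205 and 18.2), a further Rara probe set (105 and 10.8), Tnni3 (65.6 and 7.1) and Apba3 (85.5 and 9.4). Irf7, the master regulator of the interferon response, Mx2, an antiviral GTPase, and Lgals9, a galectin, are interferon-induced genes. Irf7 ranked 413 on replicate 1 and 5315 on replicate 2. All 10 lay above the blank controls on replicate 1 and within their range, at 29.1 or below, on replicate 2.

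A list of interferon response genes was then drawn up after these values had been seen, so it is a description only. Of 25 measured genes, 23 had the higher percentile on replicate 1 (92%), against 2291 of all 4736 genes, and 8 were at least 4-fold brighter there, against 50 of all genes (1.06%). In 4 of the 8 (Irf7, Lgals9, Cxcl10 and Mx2) replicate 2 was within the blank range, and in the other 4 (Oas1a, Stat2, Lgals3bp and Rsad2) it was above it. The summed intensity of the list was 13487 on replicate 1 and 4892 on replicate 2. Oas1a, which makes the activator of RNase L, had 1399 and 208, Stat2, a signal carrier of the interferon receptor, 622 and 88.5, Lgals3bp 1394 and 274, Rsad2, viperin, 311 and 44.6, Cxcl10 235 and 27.6, and Psmb9, a subunit of the immunoproteasome, 298.5 and 121. Irf1 (221.5 and 299) and Irf8 (13.1 and 44.3) went the other way. On the other 8 arrays the brighter Irf7 probe set ran from 48.7 to 620.5 and Mx2 from 11.9 to 358.5. For Irf7 replicate 1 lay above that range and replicate 2 below it, and for Mx2 replicate 1 lay above it. Replicate 1 was also above the other arrays for Oas1a (161.9 to 946.9) and Stat2 (38.8 to 487.9). It lay within their range for others of the list, such as Mx1 (89.3, in 12 to 94.5), Psmb8 (560, in 190.1 to 645.6) and B2m (689.7, in 360.4 to 1259.7).

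**Figure D5:**
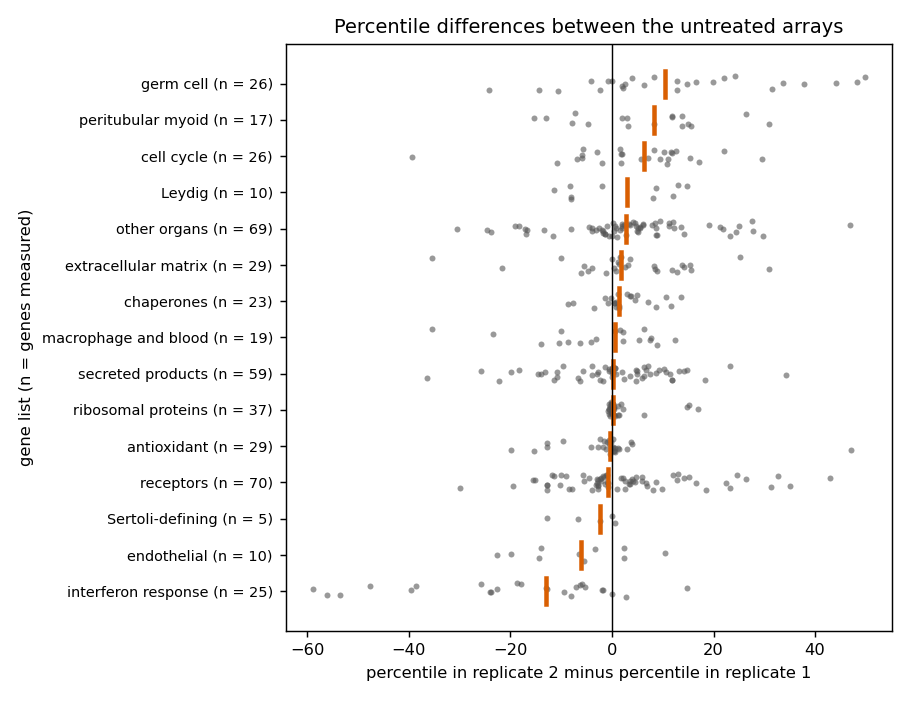
Percentile on replicate 2 minus percentile on replicate 1 (x axis) for every measured gene of 15 lists (rows, with the number measured), with the median of each list as an orange bar. Germ cell markers lie mostly to the right, with a median of 10.5 points, interferon response genes mostly to the left, with a median of -13.1 points, and ribosomal proteins near 0.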

How the data were processed

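Of 10 rat oligonucleotide arrays hybridised with total RNA of Sertoli cultures, the 2 untreated 0 h arrays were used, 1 of them placed at 0 h by its description. The deposited values are intensities, 1 per probe set and array on a linear scale. Their scaling, background correction and software are not given in the sources used here. Without the lowest and highest 2%, the array means lay between 125.2 and 125.27 on all 10 arrays, as scaling to 1 target would leave them. No further normalization was applied, since ranks within an array do not need it. The number of arrays limits the precision.

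Symbols were read from GEO's platform annotation, in which 7006 of the 8740 probe sets had exactly 1, 308 had more and 1426 lacked any. By gene identifier, 6985 of the 7006 matched the rat RefSeq table (GRCr8) and 21 did not. The array values carry no genome build, and coordinates are given only for RefSeq promoter sequences.

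Ranks, percentiles and Spearman's rho were computed with pandas 2.3.3 and scipy 1.17.1 in Python 3.11.15, and the code was tested on simulated data. A gene was in the top 10% or upper 50% only where both arrays placed it there. Genes were named by a fixed rule: the 40 brightest probe sets with 1 symbol, the Sertoli-defining genes, the members of 5 Sertoli lists in the top 10% on both arrays, the 5 brightest genes of every other list, and the 10 widest gaps between the arrays in each direction among probe sets in the upper 50% on at least 1 array. Others named were chosen after their values were seen. The arrays, lists and alternatives were chosen with earlier results of these data known, and the interferon list after seeing the values.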

Additional observations from a re-analysis of the deposited data

How the results depend on the processing

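No paired analysis was possible because only 1 group was used and no result comes from a test. No count over all genes is given for the top 25%. The counts are of genes placed in a bright part of both arrays. With the top 25% as the limit they became 21 for secreted products (12 in the top 10%, 9 in the top 5%), 10 for receptors (37 in the upper 50%), 11 for transcription factors (23), 3 for germ cell markers (7), 7 for the 56 markers of other testis cells (23) and 3 for other-organ genes (20), as a stricter or wider limit must move them. With the median over a gene's probe sets in place of the brightest, other-organ genes in the upper 50% fell to 7 and secreted products in the top 10% numbered 8. Receptors in the upper 50% then numbered 27, transcription factors 16, other testis markers 16 and germ cell markers 7. No count over all genes is given for this setting. Left out in turn, the single arrays gave 9 to 15 germ cell markers in the upper 50%, 13 to 14 secreted products in the top 10%, 39 to 45 receptors, 25 to 28 transcription factors, 26 to 29 other testis markers and 23 to 24 other-organ genes. The germ cell count was 7 with both arrays, 15 without replicate 1 and 9 without replicate 2. Ranking only probe sets with 1 symbol moved no count by over 1.5 times. Spearman's rho was 0.806 among probe sets in the upper 50% on at least 1 array and 0.883 among those with 1 symbol. The 417 probe sets 4-fold apart became 83 among those in the upper 50% on both arrays, 321 with values under 13.8 raised to that floor, 376 with a shared 75th percentile and 352 after quantile normalization.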
